A study of Mus musculus with 7 samples.

Results

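Oligodendrocyte progenitors of the mouse striatum were described from single-nucleus RNA-seq of 7 male C57BL6/J mice. The nuclei were those that the authors' annotation names Polydendrocytes, an older name for the same cells, and there were 78 of them among 4524 annotated nuclei. The 4 HttQ175/+ mice, which carry 1 huntingtin allele with a knocked-in expanded CAG repeat, were 15 months old in replicate 1 and 14 months old in replicates 2, 3 and 4, and gave 11, 17, 11 and 11 progenitor nuclei. The 3 wild-type (WT) mice, all 14 months old, gave 9, 8 and 11. Each library came from 1 mouse, and no other allele or treatment is named in the labels. No cell barcode of a progenitor nucleus occurred in more than 1 library. The comparison asks what differs in striatal cells that carry the Huntington's disease mutation.

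Oligodendrocyte progenitors are the dividing glia of the adult brain. They respond to platelet-derived growth factor through the receptor Pdgfra, carry chondroitin sulphate proteoglycans on their surface, receive synaptic input from neurons through glutamate and GABA receptors, and give rise to new myelin-forming oligodendrocytes, passing through a committed stage that is marked by the receptor gene Gpr17. The expression values are 3′ UMI counts (a UMI tags 1 captured RNA molecule), given here as CPM, the UMIs of a gene scaled to 1 common total per nucleus, and averaged over the nuclei of a mouse. A 3′ UMI count does not scale with transcript length and differs in capture between genes, so each gene is compared with itself across mice and cell types.

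Depth was low. The progenitor nuclei held 1136 to 4981 UMIs each, and their sum per mouse was 22000, 34735, 24328 and 26477 UMIs in the HttQ175/+ mice, against 16307, 13701 and 24335 UMIs in the WT mice. In this depth 20 UMIs over all 7 mice, the minimum for testing a gene, left 1630 of 27998 genes. The deposited tables also lack low counts of abundant genes. Over all nuclei, 290 genes that were found in at least 30 nuclei were in no nucleus at exactly 1 UMI, and these genes held 32.4% of all UMIs. The lowest count above 0 was 5 UMIs for Meg3, 31 for Malat1, and 2 for Tpt1, against 1 for Pdgfra. A 0 of such a gene may therefore stand for a small count, and 211 of the 1630 tested genes were of this kind. None of the 4 markers or of the 25 genes that stood out most in progenitors was.

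The markers fitted the annotation, which is no check of it, since the nuclei were annotated from the same expression data. Pdgfra averaged 1370 CPM over the 7 mice in progenitors, against 12.1 CPM in oligodendrocytes and 14.4 CPM in astrocytes, and its next level among the other 11 annotated types was 211 CPM in cholinergic interneurons (the label IN-Chat). Tnr, which encodes the matrix glycoprotein tenascin-R, averaged 911 CPM, against 46.4 CPM in oligodendrocytes and 24.7 CPM in astrocytes. Cspg4, the NG2 proteoglycan, averaged 655 CPM, against 7.99 CPM in oligodendrocytes and 5.51 CPM in astrocytes, and was at 409.8 CPM in endothelial cells, the other type with a high level. Ptprz1, a receptor phosphatase that carries chondroitin sulphate chains, averaged 2655 CPM, against 87.6 CPM in oligodendrocytes and 1235 CPM in astrocytes. It was shared with astrocytes, whereas the 3 other markers were not.

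At the level of single nuclei, Pdgfra had a UMI in 67 of 78 progenitor nuclei (85.9%, exact 95% interval 76.2 to 92.7%). The share was 2.14% of 468 oligodendrocyte nuclei, 2.00% of 300 astrocyte nuclei and 0.221% of 1809 nuclei labelled D1.MSN (spiny projection neurons), a type that should lack it. Median depths were 1560.5 UMIs in progenitors, 2158.5 in oligodendrocytes, 1664 in astrocytes and 2175 in D1.MSN nuclei. With every nucleus thinned to 1128 UMIs, the Pdgfra shares were 73.1%, 0.855%, 1.00% and 0.0553% in the same order. These intervals cover counting error only. Of the 78 nuclei, 29 held all 4 markers, 27 held 3, 17 held 2, 2 held 1 and 3 held none. The 3 nuclei with none were all from HttQ175/+ replicate 2, had 1818 to 3887 UMIs and held 46, 52 and 102 UMIs of Meg3, a long non-coding RNA that is abundant in neurons.

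**Figure D1:**
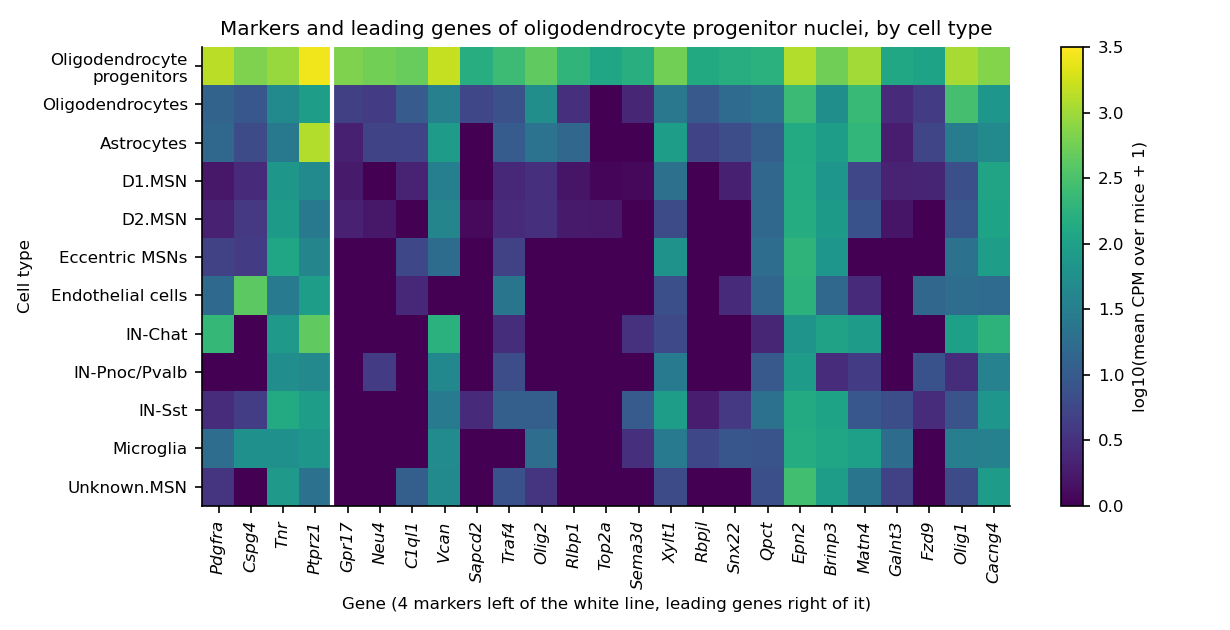
Mean level over mice of the 4 markers and of 21 other leading genes (columns) in the 12 annotated cell types (rows), as log10 of CPM plus 1. The progenitor row is bright throughout, Ptprz1 is also high in astrocytes and Cspg4 in endothelial cells, and Gpr17 and Neu4 are near 0 in every other type.

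The RefSeq windows upstream of 3 of the markers, shown because these genes define the cells, are the 250 bases before the annotated start on the plus strand of GRCm38.p6. They lie at chr5:75152001-75152250 for Pdgfra, chr1:159523519-159523768 for Tnr and chr6:22875252-22875501 for Ptprz1. Capitals mark matches, on either strand, to the E-box words CAGCTG and CAGATG, which basic helix-loop-helix factors such as OLIG2 can bind, or to the SOX words ACAAAG and ACAATG.
Pdgfra: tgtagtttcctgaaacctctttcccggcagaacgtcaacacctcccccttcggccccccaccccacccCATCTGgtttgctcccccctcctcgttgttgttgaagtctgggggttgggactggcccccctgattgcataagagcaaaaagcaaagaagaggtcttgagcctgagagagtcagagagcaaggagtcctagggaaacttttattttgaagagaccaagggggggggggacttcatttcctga
Tnr: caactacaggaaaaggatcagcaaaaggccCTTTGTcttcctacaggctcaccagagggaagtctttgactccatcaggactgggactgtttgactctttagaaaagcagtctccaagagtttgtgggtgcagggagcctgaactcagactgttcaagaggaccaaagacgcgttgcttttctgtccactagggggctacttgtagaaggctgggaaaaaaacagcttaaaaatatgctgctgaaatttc
Ptprz1: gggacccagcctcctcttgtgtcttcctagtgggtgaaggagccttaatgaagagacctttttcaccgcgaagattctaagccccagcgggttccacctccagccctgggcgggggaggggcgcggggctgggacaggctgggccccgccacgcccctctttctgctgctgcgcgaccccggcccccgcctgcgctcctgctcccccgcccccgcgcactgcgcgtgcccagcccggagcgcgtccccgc
The Pdgfra window held 1 E-box match, the Tnr window 1 SOX match and the Ptprz1 window none. Of 25 marker and leading genes, 19 had a window in the table, of which 2 held an E-box word and 4 a SOX word. Among all 27025 windows, 1 per gene, the shares were 25.3% and 25.5%.

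The genes that stood out most in progenitors were ranked by the ratio of their progenitor level to the highest level in any other type, each with 20 CPM added. This is a description, since the nuclei were annotated from the same expression data. Gpr17 led, with 669 CPM in progenitors and 3.63 CPM in oligodendrocytes, the next type, a ratio of 29.2. Neu4, a sialidase, had 563 CPM, against 4.22 CPM in astrocytes, a ratio of 24.1. C1ql1, a secreted C1q-like synaptic protein, had 491 CPM and a ratio of 16.9. Versican (Vcan), another chondroitin sulphate proteoglycan, had 1568 CPM and a ratio of 8.40.

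Transcription factors of the lineage followed. Olig2 had 448 CPM in progenitors, against 52.0 CPM in oligodendrocytes, and Olig1 had 1097 CPM, against 294 CPM. Sox10, which acts throughout the lineage, differed less, with 319 CPM in progenitors and 194 CPM in oligodendrocytes. Sox6, which is known to hold progenitors back from maturing, had 475 CPM, against 10.0 CPM in oligodendrocytes. Of the 30 genes listed as progenitor identity genes, 24 had their highest level of the 12 types in progenitors. The ranking's last place, the 25th, went to Cacng4 (ratio 3.54), an auxiliary subunit of AMPA receptors, and the first gene outside it was Ptgfrn (ratio 3.51).

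Markers of other cells that can carry Pdgfra or Cspg4 were near 0. Of 9 fibroblast and leptomeningeal markers, 1 had a UMI in any progenitor nucleus, and of 12 endothelial and mural markers, 2 had. Flt1, an endothelial receptor, was in 0 of 78 nuclei, which allows a share of nuclei with a UMI of up to 3.85% (3 counts). Summed, the fibroblast list was at 0 CPM in all 4 HttQ175/+ mice and in 2 WT mice, and at 57.6 CPM in WT replicate 2. The 13 microglial markers summed to 23.7 to 314 CPM in HttQ175/+ mice and 65.4 to 141 CPM in WT mice.

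Progenitor nuclei were divided into 2 kinds by Meg3, and other neuronal transcripts followed the split. Meg3 was found in 39 of 78 nuclei, and these had a median of 2475 UMIs, against 1346 UMIs in the 39 without it. In WT replicate 1 the order was reversed, with medians of 1260 UMIs with Meg3 and 1444 UMIs without. Pde10a, a phosphodiesterase of spiny projection neurons, was in 29 of the 39 nuclei with Meg3 and in 0 of the 39 without. The synaptic vesicle genes Snap25 and Syt1 followed the same line, in 21 and 17 nuclei with Meg3 and in none without. The 14 neuron markers summed to 21367 CPM in nuclei with Meg3 and 325 CPM in nuclei without. That list includes Meg3 itself, which averaged 18948 CPM in nuclei with it and 0 CPM in nuclei without. Most of the gap in the sum was therefore set by the split, and the sum is not separate evidence for 2 kinds. The nuclei of each kind were pooled over mice. Of the 39 with Meg3, 29 were from HttQ175/+ mice, with 14 from replicate 2. Of the 39 without, 21 were from HttQ175/+ mice, with 3 from replicate 2. Apart from comparisons made within mice, values by this split are therefore mixed with mouse and genotype.

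Progenitor genes ran the other way. The 30 identity genes made up a median of 0.889% of the UMIs of a nucleus with Meg3 and 2.98% of one without, and within each of the 7 mice the nuclei with Meg3 had the lower median. Pdgfra averaged 675 CPM in nuclei with Meg3 and 1954 CPM in nuclei without, yet was found in 33 and 34 nuclei. Olig2 averaged 172 and 659 CPM in the same order, Tnr 389 and 1277 CPM, and Gpr17 277 and 947 CPM. Of the 39 nuclei with Meg3, 33 thus also held Pdgfra. Other lists differed with the split as well: mitochondrially encoded genes summed to 744 CPM in nuclei with Meg3 and 5214 CPM in nuclei without, astrocyte markers to 1556 and 4063 CPM, and ribosomal protein genes to 1736 and 3134 CPM. Meg3, Pde10a, Snap25 and Syt1 are all genes that no nucleus holds at 1 UMI, so an absence may be a small count that the tables lack, and the line between the 2 kinds is not exact.

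**Figure D2:**
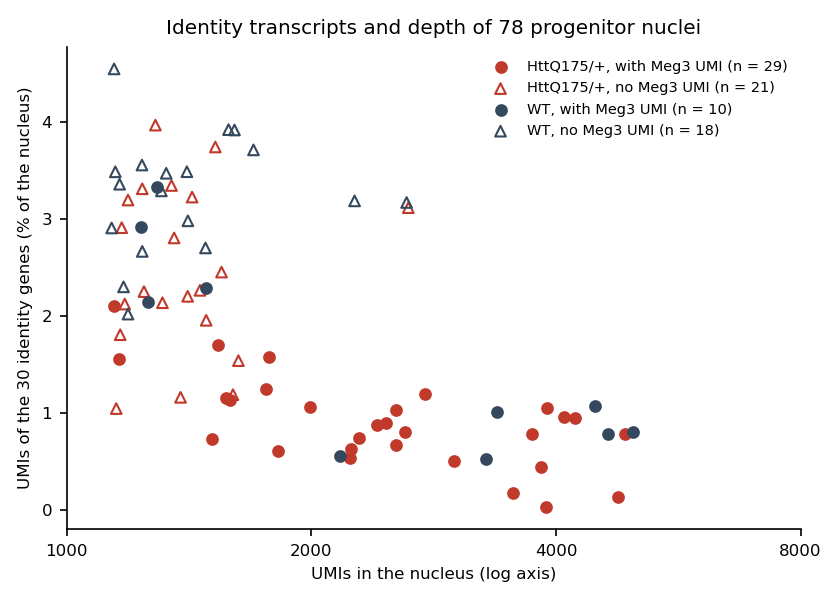
Share of a nucleus's UMIs that came from the 30 identity genes against its UMI total (log axis), for the 78 progenitor nuclei, coloured by genotype. Nuclei with a Meg3 UMI (filled circles) lie mostly to the right and low, with medians of 2475 UMIs and 0.889%. Those without (open triangles) lie mostly to the left and high, with medians of 1346 UMIs and 2.98%. Some nuclei with Meg3, among them WT nuclei with 5 or 6 Meg3 UMIs, lie to the left and high.

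The share of nuclei with Meg3 differed between mice. It was 36.4%, 82.4%, 36.4% and 63.6% of progenitor nuclei in the HttQ175/+ mice, against 33.3%, 50.0% and 27.3% in the WT mice. The groups overlapped, with HttQ175/+ replicates 2 and 4 above every WT mouse. Other glia held Meg3 as well. In oligodendrocytes the share was 80.8%, 86.1%, 40.4% and 81.7% in the HttQ175/+ mice, against 60%, 59.4% and 46.3% in the WT mice, so HttQ175/+ replicate 3 was below every WT mouse and the other 3 above. In astrocytes it was 36.8%, 69.0%, 21.4% and 57.1% in the HttQ175/+ mice, against 21.7%, 11.5% and 26.7% in the WT mice. There HttQ175/+ replicate 3 was inside the WT range and the other 3 above it. The part of these transcripts in the genotype results was not tested.

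Receptor genes were read with this split in view, since progenitors and neurons share many of them. Gria2, an AMPA receptor subunit, had 3857 CPM in nuclei with Meg3 and 3789 CPM in nuclei without, and was found in 72 of 78 nuclei. Grin1, the obligatory NMDA receptor subunit, was in 16 nuclei with Meg3 and in 0 without, and Grin2b had 641 and 39.9 CPM; these 3 genes too were never found at 1 UMI. Grin3a went the other way, with 111 CPM in nuclei with Meg3 and 386 CPM in nuclei without, as did the voltage-gated potassium channel subunit Kcnd2, with 154 and 273 CPM, and its partner Kcnip3, with 168 and 453 CPM. Cacng4 had 444 and 884 CPM. The sodium channel gene Scn1a had 239 and 215 CPM.

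Stages along the lineage were represented unevenly. Gpr17 was in 38 of 78 nuclei (48.7%, exact 95% interval 37.2 to 60.3%), against 0.641% of oligodendrocyte nuclei. This interval covers counting error only and leaves out the spread between mice. Itpr2, an early gene of maturing progenitors, was in 35 nuclei (44.9%), but also in 24.0% of astrocyte and 25.9% of endothelial nuclei, against 2.99% of oligodendrocyte nuclei. Genes of newly formed oligodendrocytes were in few nuclei: Bcas1 was in 9 (11.5%), Bmp4 in 3 (3.85%) and Enpp6 in 1 (1.28%). In oligodendrocyte nuclei the shares were 15.6%, 2.35% and 11.5% in the same order. Tcf7l2 was in 10.3% of progenitor, 4.49% of oligodendrocyte and 17.7% of astrocyte nuclei. Bmp4 and Tcf7l2 were thus no rarer in progenitors than in oligodendrocytes. Mog, a myelin protein of mature cells, was in 5 progenitor nuclei (6.41%), against 58.5% of oligodendrocyte nuclei. Its share was 7.33% in astrocyte, 9.76% in microglia and 1.66% in D1.MSN nuclei. The myelin gene Mbp was in 16.7% of progenitor, 84.8% of oligodendrocyte and 19.3% of astrocyte nuclei. Neither gene was thus more frequent in progenitors than in astrocytes.

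HttQ175/+ replicate 2 was low in Gpr17. The gene had 576, 23.2, 589 and 753 CPM in the HttQ175/+ mice, against 1005, 652 and 1088 CPM in the WT mice. In replicate 2, 1 of 17 nuclei held it, whereas the 6 other mice had it in 5 to 8 nuclei each. The fitted log2 difference was -0.97 ± 0.50 (SE, adjusted p = 0.570), which did not pass the test. That mouse also had the highest share of nuclei with Meg3.

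Dividing cells were few. Mki67, a nuclear protein of cycling cells, was in 4 of 78 nuclei (5.13%, exact 95% interval 1.41 to 12.6%) and topoisomerase 2-alpha (Top2a) in 3, where Mki67 was in 1.05% of the D1.MSN nuclei, which do not divide. The interval for Mki67 covers counting error only. In 2 nuclei several genes of mitosis occurred together. The nucleus from HttQ175/+ replicate 3 held 12 UMIs of 6 of the 13 mitotic genes examined, and the one from HttQ175/+ replicate 4 held 24 UMIs of 9 of them. Neither held Gpr17 or Meg3, and they held 3 and 2 of the 4 progenitor markers. In WT mice no progenitor nucleus held more than 2 such genes, and Top2a was in 0 of 28 nuclei, which allows a share of nuclei with a UMI of up to 10.7% (3 counts). These nuclei are too few to compare the genotypes, and a difference in the number of cycling nuclei was not tested.

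The share of progenitor nuclei was compared over mice. Progenitors made up 1.34%, 1.37%, 2.46% and 1.57% of all nuclei in the HttQ175/+ mice, against 2.15%, 2.37% and 1.97% in the WT mice. Means were 1.68% ± 0.52 (SD, n = 4) and 2.16% ± 0.20 (SD, n = 3), with overlap through HttQ175/+ replicate 3 (two-sided exact permutation p = 0.171). Pooled, 50 of 3210 HttQ175/+ nuclei were progenitors (1.56%, exact 95% interval 1.16 to 2.05%), against 28 of 1314 WT nuclei (2.13%, 1.42 to 3.07%). The pooled intervals cover counting error only and leave out the spread between mice, so they do not compare the genotypes.

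Against other glia the gap was wider. Per 100 oligodendrocyte nuclei there were 15.1, 15.7, 19.3 and 10.1 progenitor nuclei in the HttQ175/+ mice, against 25.7, 25 and 20.4 in the WT mice. Every HttQ175/+ mouse was below every WT mouse, a difference of -8.65 in the means of 15.0 ± 3.8 and 23.7 ± 2.9 (SD; two-sided exact permutation p = 0.0571, adjusted p = 0.129 over the 3 shares). Of all glial nuclei, progenitors were 7.86% ± 2.05 and 10.6% ± 0.63 (two-sided exact permutation p = 0.0857, adjusted p = 0.129). None of the 3 shares passed 0.05. With 4 mice against 3 there are 35 splits, so the smallest p possible is 0.0286. Fewer progenitors, more of the other nuclei and unequal recovery of nuclei cannot be told apart in these shares.

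**Figure D3:**
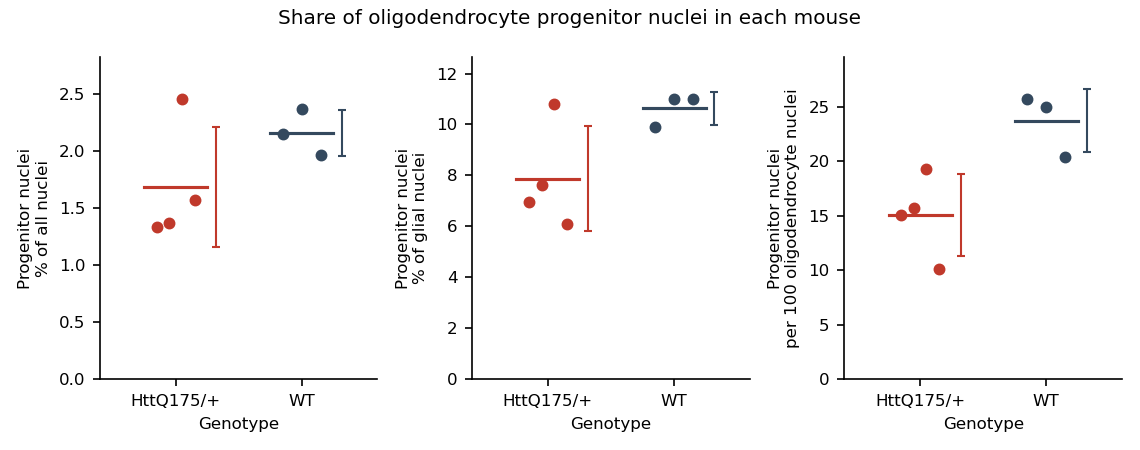
Progenitor nuclei in each mouse as a percentage of all nuclei, as a percentage of glial nuclei and per 100 oligodendrocyte nuclei. Points are mice (HttQ175/+ in red, WT in dark blue), lines are means and bars are SD; the groups separate only in the right panel, where the highest HttQ175/+ mouse has 19.3 and the lowest WT mouse 20.4.

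Depth per progenitor nucleus was compared as well. Median UMIs per nucleus were 1427, 1818, 1459 and 1590 in the HttQ175/+ mice, against 1406, 1533 and 1326 in the WT mice (two-sided exact permutation p = 0.257). Median genes per nucleus were 977, 1198, 1051 and 1150, against 962, 1035 and 901 (two-sided exact permutation p = 0.114). Neither difference passed 0.05.

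No gene passed the test for a genotype difference in progenitors. In limma's moderated test on log2 CPM with a pseudocount worth 2 UMIs, none of 1630 genes was called higher (0%) or lower (0%), with adjusted p values below 0.05 taken as calls. At an unadjusted p under 0.05 there were 147 genes (9.02%), of which 122 (7.48%) were higher and 25 (1.53%) lower in HttQ175/+ mice. With no minimum 3 genes were called (Klc1, Meg3 and Tpt1), with summed UMIs 1 (Klc1), and without marked doublets or without WT replicate 2 also 1 (Meg3). The minimum of 20 UMIs was set on the sum of all mice, and HttQ175/+ mice supplied more of the nuclei, so a gene high in those mice reached it more easily. The median log2 difference of all tested genes was 0.21, and 0.056 without the scaling of libraries by trimmed means.

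The genes with the smallest p are given as the nearest to a call, although none passed. Meg3 had 8904, 14989, 7411 and 15404 CPM in the HttQ175/+ mice, against 2561, 7840 and 4498 CPM in the WT mice, and only HttQ175/+ replicate 3 fell below the highest WT mouse. Its log2 difference was 1.53 ± 0.34 (SE, adjusted p = 0.0686). Klc1, a light chain of the motor protein kinesin-1, had 241, 377, 177 and 343 CPM in the HttQ175/+ mice and was listed at 0 in every WT mouse (log2 difference 2.20 ± 0.50, adjusted p = 0.0686). Of the 14 nuclei with Klc1, 13 also held Meg3. Both genes had the higher mean in HttQ175/+ mice in other glia too. Meg3 averaged 17083 against 9977 CPM in oligodendrocytes and 8561 against 2680 CPM in astrocytes. Klc1 averaged 381 against 227 CPM and 229 against 122 CPM in the same order.

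Tpt1, the translationally controlled tumour protein, had 172, 307, 158 and 628 CPM in the HttQ175/+ mice and was listed at 0 in every WT mouse (2.21 ± 0.52, adjusted p = 0.0686). It rested on 29 UMIs in 11 nuclei, and the gene has processed pseudogenes that may share its reads. Klc1 and Tpt1 reached the minimum of 20 UMIs through the HttQ175/+ mice alone. All 3 of these genes are among those that no nucleus holds at 1 UMI, so their fitted differences depend on the pseudocount and give no bound on the fold. Srek1, a splicing regulator that is not of that kind, had 292, 350, 675 and 281 CPM in the HttQ175/+ mice, against 75, 77.7 and 81.3 CPM in the WT mice. Its groups were well apart, but its level rested on 38 UMIs against 6, and the adjusted p was 0.193. Nor was this particular to progenitors. In oligodendrocytes Srek1 had 182, 246, 205 and 247 CPM in the HttQ175/+ mice, against 30.2, 139 and 79.2 CPM in the WT mice. In D1.MSN nuclei it had 208, 280, 278 and 220 CPM, against 151, 109 and 105 CPM. In astrocytes the groups overlapped, with means of 209 and 158 CPM.

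On the lower side, Itm2b, which encodes the BRI2 membrane protein, had 0, 98.0, 125 and 57.2 CPM in the HttQ175/+ mice, against 462, 568.2 and 379 CPM in the WT mice (log2 difference -1.76 ± 0.47, adjusted p = 0.193). It too was never found at 1 UMI. Megf11, a membrane protein of progenitors and of some interneurons, had 283, 223, 62.3 and 59.7 CPM, against 676, 598 and 435 CPM (-1.37 ± 0.46, adjusted p = 0.485). Both were lower in all 4 HttQ175/+ mice than in any WT mouse, as were 65 of the 1630 genes (3.99%); 62 genes (3.80%) were higher in all 4. The other genes nearest to a call were Chd3 on the higher side and Rbbp6, Inpp4a and Nlgn3 on the lower.

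Identity genes leaned lower. Of the 25 tested, 23 had a log2 difference below 0, beside 35.6% of all tested genes, and their median was -0.55 beside 0.21. None passed the adjusted test; 4 (Tnr, Megf11, Cspg5 and Dscam) were lower at an unadjusted p under 0.05, beside 1.53% of all genes. In 7 of the 25 every HttQ175/+ mouse was below every WT mouse, beside 3.99% of all tested genes, namely in those 4 and in Ptprz1, Cacng4 and Olig1. The 30 identity genes summed to 19387, 10743, 19300 and 15312 CPM in the HttQ175/+ mice, against 27438, 27471 and 24885 CPM in the WT mice.

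The values of the 4 markers show how far single genes carry this. Tnr had 731, 315, 962 and 386 CPM in the HttQ175/+ mice, against 1464, 1378 and 1141 CPM in the WT mice (log2 difference -0.94 ± 0.39, adjusted p = 0.485). Ptprz1 had 2052, 1144, 2391 and 2406 CPM, against 3779, 3332 and 3481 CPM (-0.62 ± 0.34, adjusted p = 0.580). Cspg4 had 226, 518, 750 and 415 CPM, against 875, 1062 and 741 CPM (-0.66 ± 0.41, adjusted p = 0.661), and overlapped through HttQ175/+ replicate 3. Pdgfra overlapped too, with 1965, 762, 1128 and 858 CPM, against 1620, 1434 and 1823 CPM (-0.30 ± 0.37, adjusted p = 0.827), and its highest level of all was in HttQ175/+ replicate 1.

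Neuronal transcripts leaned the other way in the same nuclei. The 14 neuron markers, of which 13 had a UMI in progenitors, summed to 10517, 17093, 8335 and 17218 CPM in the HttQ175/+ mice, against 3119, 8793 and 5479 CPM in the WT mice, with Meg3 the largest part. The median log2 difference of the 7 tested was 0.95, beside 0.21 for all tested genes, and 0.57 over the 3 that remain without the genes never found at 1 UMI. This lean was not particular to progenitors. In oligodendrocytes the list averaged 19126 CPM in HttQ175/+ mice and 11673 CPM in WT mice, with overlap. Its means were 10112 and 3473 CPM in astrocytes and 37245 and 26102.5 CPM in D1.MSN nuclei, without overlap. In progenitor nuclei without a Meg3 UMI, the identity genes summed to 25600, 19302, 24256 and 27517 CPM in the HttQ175/+ mice, against 31435, 38212 and 30617 CPM in the WT mice, still without overlap but closer, and HttQ175/+ replicate 2 rested there on 3 nuclei. Those nuclei were chosen by a gene that leans with genotype, and they are shallower. In a fit of those nuclei alone, 252 genes could be tested and 0 passed; 20 of 22 identity genes were below 0 with a median of -0.59, beside 70.2% and -0.31 for all 252. Without HttQ175/+ replicate 2, 21 of 25 identity genes were below 0 with a median of -0.30, beside 38.4% and 0.18 for all genes.

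**Figure D4:**
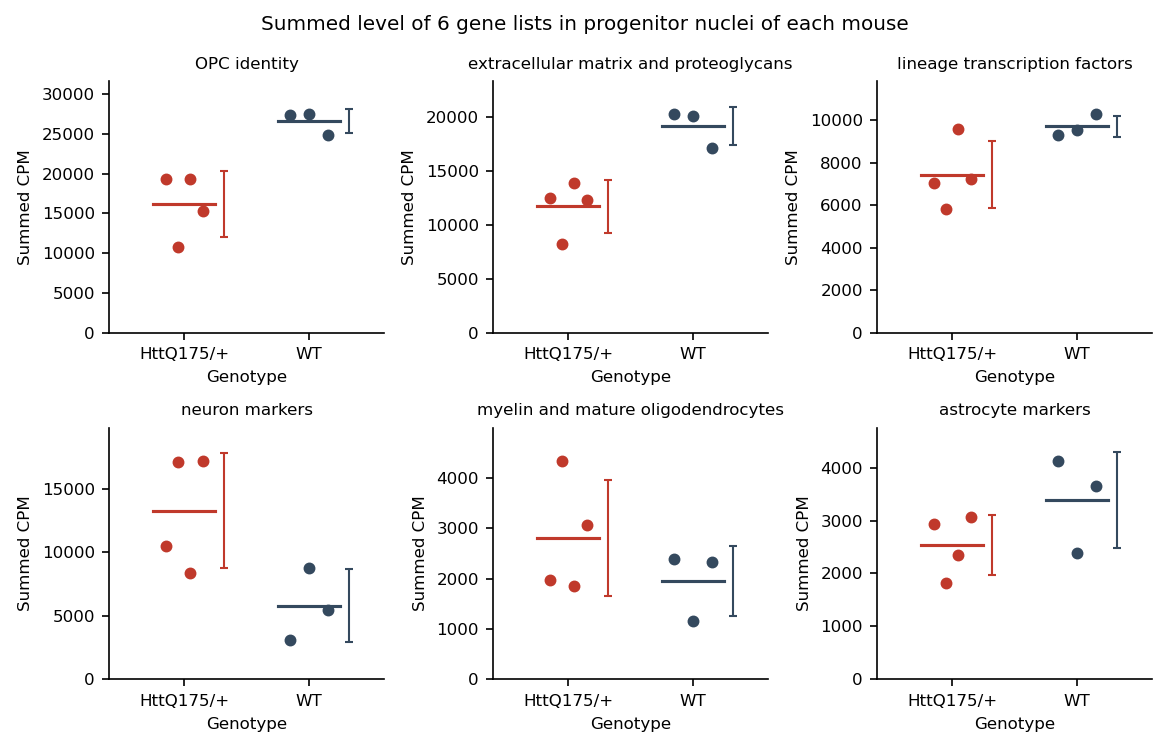
Summed CPM of 6 gene lists in the progenitor nuclei of each mouse (points), with means (lines) and SD (bars), HttQ175/+ in red at the left and WT in dark blue at the right of each panel. The identity and matrix lists lie below the WT mice in all 4 HttQ175/+ mice, and the neuron list is above every WT mouse in 3 of 4.

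Matrix and proteoglycan genes, of which 8 of those tested are identity genes too, showed the same lean. Of 14 tested, 13 were below 0 with a median of -0.44, beside 35.6% and 0.21 for all tested genes, and none passed. When a mouse was left out, the median ranged from -0.70 without HttQ175/+ replicate 3 to -0.30 without HttQ175/+ replicate 2. The medians of all tested genes were 0.24 and 0.18 in those fits. The list summed to 12486, 8233, 13890 and 12307 CPM in the HttQ175/+ mice, against 20275, 20109 and 17137 CPM in the WT mice. Sulf2, which removes sulphate from heparan sulphate, had 269, 135, 159 and 377 CPM in the HttQ175/+ mice, against 601, 673 and 609 CPM in the WT mice (log2 difference -1.04 ± 0.43, adjusted p = 0.485). In nuclei without Meg3 the matrix sums overlapped, at 16602 to 21957 CPM in HttQ175/+ mice and 20909 to 27129 CPM in WT mice.

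Other groups of progenitor genes were mixed. Of 17 lineage transcription factors tested, 9 were below 0 (median -0.02), and of 9 genes of growth factor signalling 6 were (median -0.25), beside 35.6% and 0.21 for all tested genes. The growth factor list, which includes Pdgfra, summed to 4270, 2754, 4367 and 3299 CPM in the HttQ175/+ mice. In the WT mice it summed to 5536, 4890 and 5048 CPM, without overlap. Glutamate and GABA receptors had 4 of 15 below 0 (median 0.28) and ion channels 8 of 18 (median 0.05). At an unadjusted p under 0.05, 1 of the 17, 1 of the 9 (the insulin receptor gene Insr), 1 of the 15 and 3 of the 18 were higher, beside 7.48% of all tested genes, and none was lower. Among the channels the potassium leak channel Kcnk2 was nearest to a call, with 354, 716, 178 and 289 CPM in the HttQ175/+ mice, against 0, 0 and 230 CPM in the WT mice (1.81 ± 0.52, adjusted p = 0.219). It was in 20 nuclei with Meg3 and in 3 without.

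Adhesion and guidance genes had 17 of 36 below 0 (median 0.05), genes of differentiation 4 of 7 (median -0.07), heat shock and chaperone genes 3 of 7 (median 0.32), mitochondrially encoded genes 1 of 6 (median 0.38) and ribosomal protein genes 2 of 4 (median 0.05). Astrocyte markers had 5 of 7 below 0 (median -0.14) and spiny projection neuron markers 2 of 9 (median 0.09). Only 3 myelin genes and 2 proliferation genes could be tested, and no gene of cholesterol synthesis. No member of any of these lists passed the adjusted test. Huntingtin (Htt) itself had 56.7, 188, 240 and 275 CPM in the HttQ175/+ mice, against 277, 421 and 223 CPM in the WT mice (-0.39 ± 0.46, adjusted p = 0.815), from 38 UMIs in all; a 3′ count does not tell the expanded allele from the other.

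Progenitors were then set against their descendants, the oligodendrocytes, by testing the genotype difference in one minus that in the other within each mouse. In 4 of 1630 genes (0.245%) this difference was positive at an adjusted p under 0.05, and in 0 (0%) it was negative; at an unadjusted p under 0.05 there were 117 (7.18%), 76 positive (4.66%) and 41 negative (2.52%). Tpt1, Scd2 and App were among the 4 positive at the adjusted threshold. In these 3 the level in oligodendrocytes was lower in every HttQ175/+ mouse than in any WT mouse, and in progenitors it was not. These 3 genes are among those never found at 1 UMI, and each was listed at 0 in at least 1 WT mouse's progenitors.

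Scd2, a fatty acid desaturase that myelinating cells use, had 940, 472, 708 and 619 CPM in progenitors of the HttQ175/+ mice, against 604, 0 and 628 CPM in the WT mice. Its oligodendrocyte levels were 1424, 1145, 1921 and 1229 CPM in the HttQ175/+ mice, against 2874, 3296 and 3372 CPM in the WT mice, a difference between the cell types of 2.40 ± 0.52 on the log2 scale (SE, adjusted p = 0.0138). App, the amyloid precursor protein, had 278, 171, 405 and 343 CPM in progenitors of the HttQ175/+ mice, against 463, 0 and 0 CPM in the WT mice. In oligodendrocytes it had 631, 566, 869 and 546 CPM in the HttQ175/+ mice, against 1134, 1556 and 1233 CPM in the WT mice, and the difference was 2.33 ± 0.56 (adjusted p = 0.0443). Tpt1 was 194, 108, 100 and 185 CPM in oligodendrocytes of the HttQ175/+ mice, against 245, 369 and 401 CPM in the WT mice, and was found only in HttQ175/+ mice in progenitors, giving 3.11 ± 0.55 (adjusted p = 0.00113). It reached the minimum of 20 UMIs through the HttQ175/+ mice alone, so its call is given as a description. With the UMIs of each mouse summed in place of averaging nuclei, no gene was called. Without WT replicate 2, whose progenitors were at 0 in all 3, Scd2 and App lost their calls and Tpt1 was the only gene called. Without HttQ175/+ replicate 4 Scd2 and App were not called either, and Tpt1 fell under the minimum of 20 UMIs and was not tested.

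**Figure D5:**
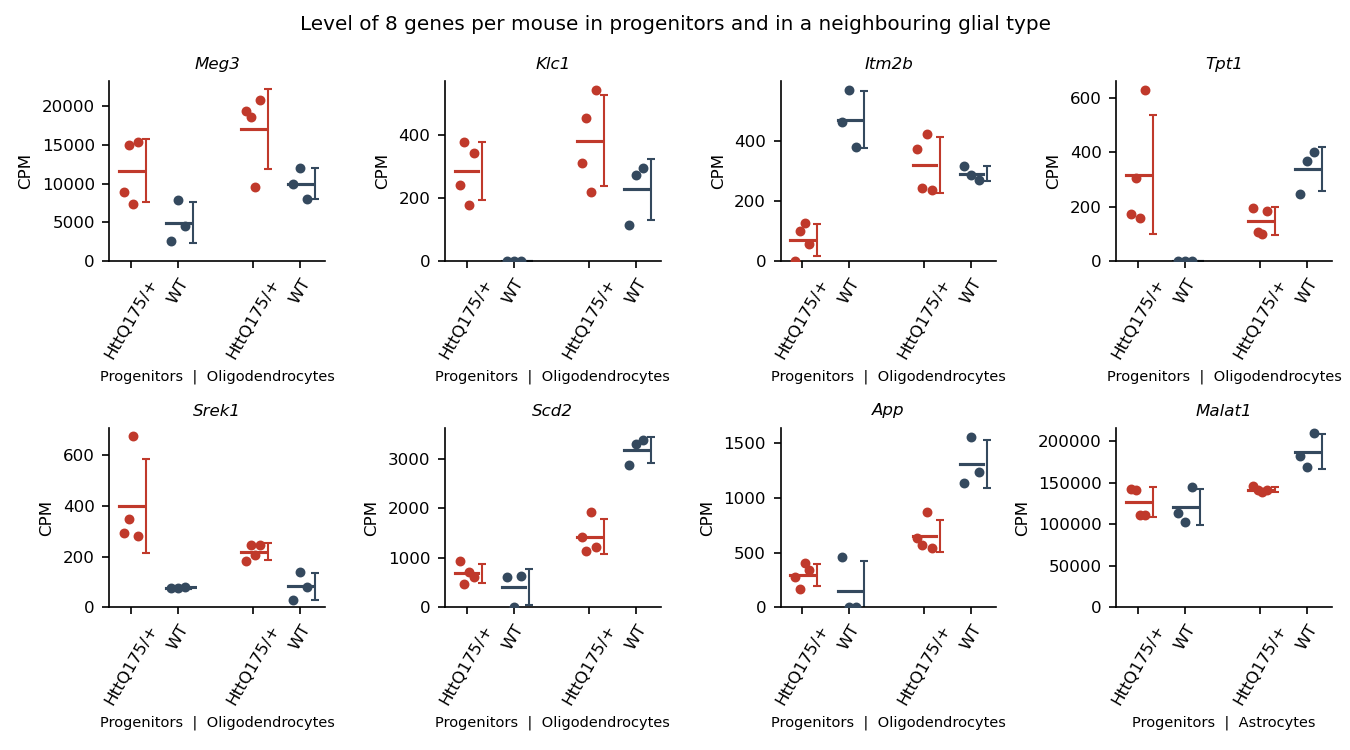
CPM per mouse of 8 genes in progenitors (left pair) and in oligodendrocytes, or astrocytes for Malat1 (right pair), HttQ175/+ in red left of WT in dark blue, with means (lines) and SD (bars). Klc1 and Tpt1 are at 0 in all WT progenitors, and Scd2 and App separate the genotypes in oligodendrocytes but not in progenitors.

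Against astrocytes, 1 of 1630 genes (0.0613%) passed with a positive difference and 0 (0%) with a negative one, and 122 (7.48%) had an unadjusted p under 0.05, 82 positive (5.03%) and 40 negative (2.45%). The gene was Malat1, a nuclear long non-coding RNA (chr19:5795690-5802672, minus strand, in GENCODE vM21 on GRCm38). In progenitors it had 143079, 141570, 111863 and 111095 CPM in the HttQ175/+ mice, against 113953, 103451 and 144972 CPM in the WT mice, which overlap. In astrocytes it had 146513, 140930, 138710 and 141544 CPM, against 182971, 168834 and 210554 CPM, which do not. The difference was 0.74 ± 0.16 on the log2 scale (adjusted p = 0.0407), and it did not pass without the scaling by trimmed means or when any mouse other than WT replicate 3 was left out.

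Identity genes gave the same picture in both differences. For progenitors minus oligodendrocytes, 22 of 25 were below 0, beside 43% of all tested genes, with a median of -0.62 beside 0.11. For progenitors minus astrocytes, 22 of 25 were below 0, beside 44.5%, with a median of -0.63 beside 0.09. None passed the adjusted test in either. Both share the progenitor values, so they are no separate evidence. The next genes by p in the comparison with oligodendrocytes were Ptgds on the positive side (2.54 ± 0.67, adjusted p = 0.0856) and Itm2b on the negative (-1.82 ± 0.52, adjusted p = 0.135), and in that with astrocytes Chtop (2.27 ± 0.57, adjusted p = 0.153) and Itm2b (-1.85 ± 0.54, adjusted p = 0.312). Progenitors held 0, 13, 6 and 6 UMIs of Ptgds in the HttQ175/+ mice and 0 in every WT mouse. Chtop had 2, 7, 9 and 3 UMIs there, against 0, 0 and 1 in the WT mice. Both genes thus reached the minimum of 20 UMIs through the HttQ175/+ mice, and Ptgds was never found at 1 UMI.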

How the data were processed

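Nuclei from flash-frozen striatum were purified over an iodixanol barrier and sequenced as 3′ libraries (Chromium v3), 1 library per mouse, per the labels' protocols; the submitters' processing notes name Cell Ranger 3.0.2, Seurat and mm10. The authors deposited expression as natural log values, ln(1 + UMIs per 10000), for 27998 genes and 4524 nuclei, and a deposited table with each nucleus's cell type and its tSNE coordinates, a score that was not used. Whole UMIs were recovered from the deposited natural log values for 100% of 5824756 values above 0, within 0.02 of a whole number. Nuclei held 1128 to 5632 UMIs. Counts of abundant genes are missing at the low end in these values, by a step not given in the sources used here.

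CPM was averaged over the nuclei of each mouse and type, scaled by trimmed means (TMM), and taken as log2(CPM + 82.2), a pseudocount worth 2 UMIs in the median mouse, which understates the change of low genes. Genes with at least 20 UMIs over all progenitor nuclei were fitted with limma 3.58.1 (R 4.3.3, trend), HttQ175/+ minus WT, with Benjamini-Hochberg adjustment over all 1630 genes and a threshold of 0.05. Differences between cell types were fitted on each mouse's log2 difference. Because the deposited unit is a log value, limma was used and not a count model; summed UMIs were an alternative. Shares were compared with exact permutation tests over mice. Named genes are those called in each fit and, where fewer than 5 of a direction were called, the 5 with the smallest p of that direction, with the 25 leading genes, the markers, Htt and tested list members. Scripts were tested on simulated data. The members and gene lists were chosen with earlier results of these data known. Scrublet marked 2 of 78 progenitor nuclei as doublets (60 of 4524 in all), which were kept. Over all nuclei 3 barcodes occurred in more than 1 library. One gene is not reported here. Promoter windows are from RefSeq, 1 per gene.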

Additional observations from a re-analysis of the deposited data

Results flagged for a closer look

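Genotype differences that differed between cell types were found for 4 genes reported here, each by the limma test of the difference itself. Progenitors minus oligodendrocytes gave log2 differences of 3.11 for Tpt1, 2.40 for Scd2 and 2.33 for App. Progenitors minus astrocytes gave 0.74 for Malat1. All 4 genes are among those that no nucleus holds at 1 UMI. Tpt1 reached the minimum for testing through the HttQ175/+ mice alone. The 4 HttQ175/+ values of the shares, depths, markers, named genes, Htt and Gpr17 (35 sets) were screened with Dixon's 95% criterion, and none passed it, the low Gpr17 of HttQ175/+ replicate 2 included.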

How the results depend on the processing

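No paired analysis was possible because the labels give the mice no replicate numbers shared between genotypes. No result reversed. Genes called for genotype in progenitors, 0 as reported, were 3 with no filter on low counts (Klc1, Meg3 and Tpt1), 1 with summed UMIs (Klc1), 1 without marked doublets (Meg3), and 0 to 1 when a mouse was left out. The 4 genes called in progenitors minus oligodendrocytes became 1 with a pseudocount worth 1 UMI, 8 with one worth 4 UMIs, 21 with no filter, 0 with a filter of 50 UMIs (277 genes), 0 with summed UMIs, 2 without marked doublets, 0 to 7 when a mouse was left out, 0 in nuclei without a Meg3 UMI (252 genes) and 0 without the genes never at 1 UMI, which leaves out the called genes by construction. Without HttQ175/+ replicate 4 the calls of Scd2 and App were lost and Tpt1 had too few UMIs to be tested; 7 genes were called without HttQ175/+ replicate 3. The 1 gene called in progenitors minus astrocytes became 0 with a pseudocount worth 1 UMI, without TMM, with a filter of 50 UMIs, weighted by nuclei, without doublets, in nuclei without Meg3 and without genes never at 1 UMI, 11 with no filter, and 0 to 1 when a mouse was left out. Fits on nuclei without Meg3, with at least 1 marker and without the genes never at 1 UMI were chosen after seeing the data. Over all alternatives the adjusted p ranged from 0.00272 to 0.344 for Meg3 and from 0.00229 to 0.468 for Klc1 in the genotype fit, and in progenitors minus oligodendrocytes from 6.40e-06 to 0.0857 for Tpt1 and from 0.000392 to 0.522 for Scd2. For the 3 shares and both depths, leaving out a mouse leaves too few splits to reach 0.05, so those p-values say nothing of stability; progenitors per 100 oligodendrocytes differed by -10.3 to -6.99 when a mouse was left out. The causes of these shifts were not tested. With 8 to 17 progenitor nuclei per mouse, depth limits every gene-level result.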
